A study of Drosophila melanogaster with 6 samples.

Results

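The genes described here carry out and control the cell division cycle. They are 47 cell cycle and DNA replication genes given as a list of names, from the G1 cyclins to the separase of anaphase, by a rule that uses no measured value. The list was, however, chosen with earlier results of these data known. Of the 47 symbols, 44 were matched to an identifier among the 17559 genes of the count tables, and all 44 passed the filter on low counts. The annotation's identifiers for Orc1 and Mcm3 are not among those in the tables and the symbol stri is in no table used here, so that no value is given for these 3. The study depleted Hakai, a RING-type ubiquitin ligase and subunit of the complex that deposits m6A on mRNA, in S2R+ cells, a Drosophila melanogaster line of embryonic origin. Poly(A) RNA was sequenced from 3 libraries of Hakai KD, in which the cells received dsRNA against Hakai, and from 3 libraries of control KD, in which they received dsRNA against the bacterial gene LacZ. According to the labels both groups were S2R+ cells of the same range of passages, treated 3 times with 10 μg of dsRNA over 6 days. The methods of the study give a smaller amount of dsRNA. All libraries come from 1 cell line, and the p-values measure the spread between these cultures only. The RNA was that of bulk cultures for which no synchronisation is named, so that fewer cells in a phase and less RNA per cell cannot be told apart.

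Progress through the cycle is driven by cyclins and the kinases they activate. In G1, Cyclin D with Cdk4 and Cyclin E with Cdk2 phosphorylate the retinoblastoma protein Rbf, which frees E2f1 and its partner Dp to switch on genes for DNA synthesis. Origins are licensed when the origin recognition complex, Cdc6 and the Cdt1 homologue Dup load the Mcm helicase, and Geminin blocks a new round of loading once S phase is under way. Cyclins A, B and B3 with Cdk1, activated by the phosphatase String, bring about mitosis. The spindle checkpoint then holds back Fizzy, the activator of the anaphase-promoting complex, until all chromosomes are attached. S2R+ cells proliferate in culture, and many of these transcripts are abundant in dividing cells.

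The libraries held between 16041353 and 17288912 counts, and TMM scaling factors were 1.005 to 1.025 in control KD and 0.9836 to 0.9904 in Hakai KD. Hakai itself fell from 308 ± 18.6 to 72.8 ± 4.85 normalised counts (SD, n = 3 each), which is a log2 fold change of -2.08 (adjusted p = 1.8e-07, edgeR quasi-likelihood test). To give normalised counts, each library was scaled to the average size of the 6 after TMM adjustment. Within a group no pair of libraries differed by as little as sampling noise, and the pair of control KD replicates 2 and 3 was closest, with a chi-square of 2.25 per degree of freedom against 11.4 and 14.7 for control KD replicate 1 against these. Hemocyte markers, which S2-type lines express, summed over 8 genes to 32918 to 36702 normalised counts in control KD and 33467 to 37213 in Hakai KD. Most of this sum was SPARC, at 24204 to 27932, while NimC1 was at 1.9 to 6.3. Among the 7 of them that were tested, Hml (log2 fold change 0.56) and Pxn (0.20) were called higher upon Hakai KD. The 4 muscle and 4 fat body markers summed to at most 17.6 and 6.7 normalised counts in any library, and Lsp1alpha was at 0 in all. The 4 neuron markers summed to 420 to 478 in control KD and 332 to 481 in Hakai KD, nearly all of it elav, and the 2 germline markers matched, aub and bam, to 3769 to 4069 and 3684 to 3722. Whether the rise of Hml and Pxn bears on the results below was not tested.

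Most cell cycle transcripts, like most genes tested, were measured close to their control level upon Hakai KD. With an adjusted p under 0.05 over all 7811 genes tested, 4 of the 44 genes were called (9.09%), against 15.3% of all genes tested. CycD, E2f1 and Dp rose, where 7.58% of all genes tested did so, and mad2 fell, where 7.72% did. The other 40 did not pass. The log2 fold changes of Hakai KD against control KD ranged from -0.17 (Orc6) to 0.38 (Myc), with a median of 0.0006, the same as over all genes tested, and 22 lay on each side of 0. The median size of the log2 fold change was 0.0558, against 0.0836 over all genes tested. Of the 44, 34 were under 0.1 in size. That count was not made over all genes tested, but their median of 0.0836 places most of them under 0.1 as well.

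The median standard error of the log2 fold change was 0.0393 in the 44 genes and 0.052 over all genes tested, and the median control levels were 1659.5 and 759.0 normalised counts. The coefficient of variation between libraries of a group was 2.96% for the median gene among control libraries and 2.38% among those of Hakai KD, and highest, 20.1%, for Myc upon Hakai KD. For 42 of the 44 genes the approximate 95% interval of the change lay within 0.322 of 0 on the log2 scale, a span chosen after the values were seen. Only those of Myc and twe reached beyond it. The same held for 110 of the 127 further cell cycle genes described below. The share over all genes tested, whose median standard error was larger, was not counted. Hakai KD and control KD libraries did not overlap for 18 genes (40.9%), against 34.9% of all genes tested, and of these 8 lay above and 10 below the control libraries. For a single gene the two-sided exact permutation test over libraries cannot go below p = 0.1 with 3 against 3, so calls were made from the fit across all genes.

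**Figure D1:**
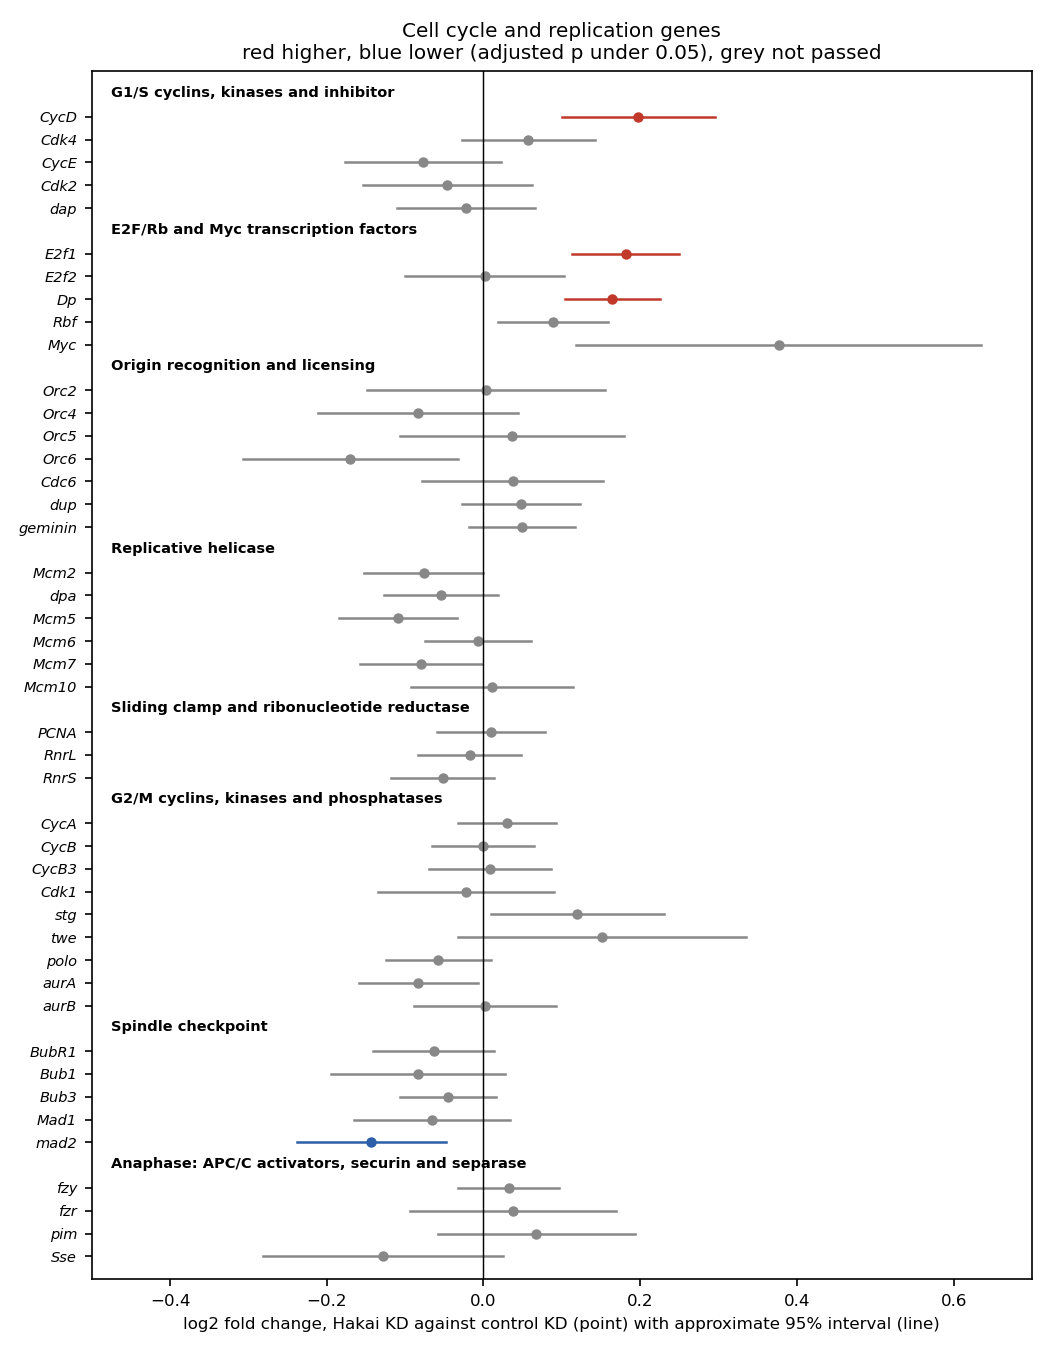
Log2 fold change of Hakai KD against control KD (horizontal axis, points) with approximate 95% intervals (lines) for the 44 genes in order of their role, red for higher, blue for lower and grey for not passed. Most points sit within 0.1 of 0, CycD, E2f1 and Dp lie to the right and mad2 to the left, and Myc has the widest interval.

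Among the 5 genes of the G1/S cyclins, their kinases and the inhibitor dap, CycD alone was called. Thus 1 of the 5 rose, none fell, and the median log2 fold change was -0.02. CycD (FBgn0010315; X, 15906822 to 15909676 in BDGP6.54), the regulatory subunit of Cdk4, had normalised counts of 1253, 1242 and 1331 in control KD and 1522, 1472 and 1391 in Hakai KD (replicates 1, 2 and 3, an order kept throughout). All Hakai KD libraries lay above all control libraries, though Hakai KD replicate 3 and control KD replicate 3 came close. The mean rose from 1275 ± 48.7 to 1462 ± 66.1 (SD, n = 3 each), a log2 fold change of 0.20 (SE 0.044, adjusted p = 0.0124, edgeR quasi-likelihood test). Its kinase partner Cdk4 had 1749, 1655 and 1611 in control KD and 1727, 1744 and 1748 in Hakai KD, and these groups overlapped (log2 fold change 0.06, adjusted p = 0.35, edgeR). The call of CycD was lost without control KD replicate 2 (0.18, adjusted p = 0.0651) and without Hakai KD replicate 1 (0.17, adjusted p = 0.0554).

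CycE, whose kinase complex triggers S phase, had 1198, 1268 and 1254 normalised counts in control KD and 1224, 1196 and 1104 in Hakai KD. The groups overlapped, and the log2 fold change of -0.08 had an interval of -0.177 to 0.022 and did not pass (adjusted p = 0.28, edgeR). The ratio of CycD to CycE counts within a library, which does not depend on library scaling, was 1.05, 0.98 and 1.06 in control KD and 1.24, 1.23 and 1.26 in Hakai KD, so that the groups did not overlap. Cdk2, the partner of Cyclin E, had a log2 fold change of -0.05 with an interval of -0.154 to 0.062. The inhibitor of the Cyclin E kinase, dap, had 1442, 1544 and 1488 in control KD and 1432, 1459 and 1516 in Hakai KD, which overlapped, and its log2 fold change was -0.02 (interval -0.11 to 0.066).

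The transcription factors of the E2F and Rb module held the steadiest calls. They were listed together with Myc, which is not part of that module. Of these 5 genes E2f1 and Dp rose and none fell. The 5 log2 fold changes had a median of 0.16 and lay above 0, from 0.0016 for E2f2 to 0.38 for Myc. E2f1 (FBgn0011766; 3R, 21620304 to 21660871), the activator of S phase genes, had 4881, 4951 and 5008 normalised counts in control KD and 5688, 5691 and 5447 in Hakai KD. The lowest Hakai KD library thus exceeded the highest control library. The mean went from 4947 ± 63.8 to 5609 ± 140.0 (SD, n = 3 each), a log2 fold change of 0.18 (SE 0.031, adjusted p = 0.0028, edgeR quasi-likelihood test).

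Dp (FBgn0011763; 2R, 13222433 to 13228202), the subunit that both E2F proteins need to bind DNA, was the most tightly measured of the genes called. Its normalised counts were 5083, 5044 and 5019.5 in control KD and 5647, 5669 and 5659 in Hakai KD, and the gap between the groups was far wider than the spread within either. The mean rose from 5049 ± 32.0 to 5659 ± 10.9 (SD, n = 3 each), a log2 fold change of 0.16 (SE 0.028, adjusted p = 0.0027, edgeR quasi-likelihood test). Of the 44 genes, E2f1 and Dp alone were called under all 12 alternatives of processing and left-out libraries, with adjusted p between 0.000196 and 0.0205 for E2f1 and between 0.000397 and 0.0189 for Dp.

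**Figure D2:**
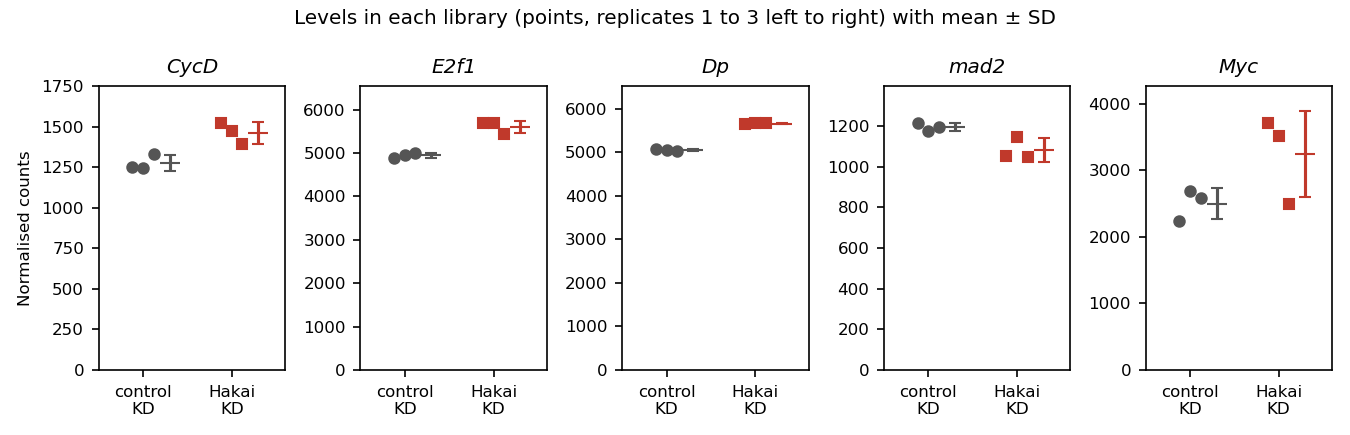
Normalised counts (vertical axis from 0) of the 4 genes called and of Myc in each library, with control KD as grey circles and Hakai KD as red squares in order of replicate, and the mean ± SD beside them. The groups are apart for CycD, E2f1, Dp and mad2, by small distances compared with their levels, and Myc has 1 Hakai KD library at 2502 among the control libraries.

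E2f2, the repressive member of the family, was at a lower level per length than E2f1 (439 against 767 normalised counts per kb in control KD) and was not called. It had 928, 837 and 871 normalised counts in control KD and 856, 886 and 896 in Hakai KD, which overlapped, with a log2 fold change of 0.0016 (interval -0.1 to 0.103). The ratio of E2f1 to E2f2 counts was 5.26, 5.92 and 5.75 in control KD and 6.64, 6.42 and 6.08 in Hakai KD. The 3 Hakai KD ratios were thus the highest of the 6. Rbf, the retinoblastoma protein that holds E2F in check, had 2210.4, 2334 and 2279 in control KD and 2425, 2407 and 2425 in Hakai KD. The groups did not overlap, but the log2 fold change of 0.09 did not pass (SE 0.032, adjusted p = 0.088, edgeR). The ratio of E2f1 to Rbf was 2.21, 2.12 and 2.20 in control KD and 2.35, 2.36 and 2.25 in Hakai KD.

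Myc (FBgn0262656; X, 3373159 to 3391697), a transcription factor that drives cell growth and ribosome production, gave the highest log2 fold change of the 44 genes and the widest error. It had 2235, 2687 and 2585 normalised counts in control KD and 3712, 3524 and 2502 in Hakai KD. Hakai KD replicates 1 and 2 lay above all control libraries, while replicate 3 lay among them. The log2 fold change of 0.38 (SE 0.118, interval 0.118 to 0.635) narrowly missed the threshold (adjusted p = 0.052, edgeR). Without Hakai KD replicate 3 it was 0.53 and passed (adjusted p = 7.68e-05), and without Hakai KD replicate 1 it was 0.27 and did not (adjusted p = 0.197). With DESeq2 the adjusted p was 0.226. In the annotation 1859 of the 9170 exonic bases of Myc are shared on the same strand with lncRNA:CR44999, which had 5.76 to 13.5 normalised counts.

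Origin licensing genes gave no call. None of 7 rose or fell, and the median log2 fold change was 0.04. The nearest to a call was Orc6, the smallest subunit of the origin recognition complex, with 499, 472 and 463 normalised counts in control KD and 422, 456 and 395 in Hakai KD. Its groups did not overlap, yet the log2 fold change of -0.17 had an adjusted p of 0.092 (SE 0.063, edgeR). The other subunits measured, Orc2, Orc4 and Orc5, had log2 fold changes of 0.004, -0.08 and 0.04, and the loading ATPase Cdc6 had 0.04, all with overlapping groups.

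The loading factor dup and its inhibitor geminin were measured more precisely. dup had 2721, 2705 and 2559 normalised counts in control KD and 2744, 2693 and 2819 in Hakai KD, a log2 fold change of 0.05 (interval -0.028 to 0.123). geminin had 2853, 2977 and 2954 in control KD and 2951, 3072 and 3063 in Hakai KD, with a log2 fold change of 0.05 (interval -0.019 to 0.117). Both pairs of groups overlapped. The ratio of dup to geminin counts was 0.954, 0.909 and 0.866 in control KD and 0.930, 0.877 and 0.920 in Hakai KD, and it overlapped as well.

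The helicase genes had values mostly below their control level, without a call. Of 6 genes, 5 had a log2 fold change below 0, and the median was -0.06. Mcm5, a subunit of the hexamer that unwinds DNA, came closest, with 1854, 1889 and 1818 normalised counts in control KD and 1734, 1687 and 1735 in Hakai KD. The groups did not overlap, and the log2 fold change of -0.11 (SE 0.034) had an adjusted p of 0.0517 (edgeR). Mcm2 had 2361, 2365 and 2221 in control KD and 2189, 2214 and 2191 in Hakai KD, a log2 fold change of -0.08 (adjusted p = 0.17, edgeR). The groups did not overlap, although the lowest control library lay just above the highest Hakai KD library. The Mcm4 homologue dpa, Mcm6, Mcm7 and the helicase activator Mcm10 had log2 fold changes of -0.05, -0.01, -0.08 and 0.01, and among these the groups were apart for Mcm7 alone. Library size alone as the scaling lowered the median of all genes tested to -0.03, and Mcm5 was then called (-0.14, adjusted p = 0.0199).

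The S phase genes at the highest levels stayed within narrow bounds. None of the 3 genes of the sliding clamp and ribonucleotide reductase was called. PCNA, the clamp that tethers DNA polymerases and a classical E2F target, had 6776, 6742 and 6842 normalised counts in control KD and 6619, 6930.4 and 6950.4 in Hakai KD. These overlapped, and the log2 fold change of 0.01 had an interval of -0.059 to 0.078. The large subunit of the reductase, RnrL, had 5652, 5616 and 5829 in control KD and 5559, 5659 and 5671 in Hakai KD (log2 fold change -0.02, interval -0.083 to 0.048). RnrS, the small subunit and likewise an E2F target, had 7512, 7310.3 and 7357 in control KD and 6999, 7224 and 7172 in Hakai KD. Every Hakai KD library lay below the control libraries, but the log2 fold change of -0.05 did not pass (interval -0.118 to 0.014, adjusted p = 0.27, edgeR).

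Compared per length, the order of levels ran from the clamp down to the meiotic phosphatase. In control KD, PCNA had 6343 normalised counts per kb of exon and was first of the 44 genes, followed by RnrS with 4641, CycB with 3083 and geminin with 2760 (each as a mean of 3 libraries). Orc2 with 127, Sse with 117 and twe with 66.8 were at the end of the order. The genes called were spread over it, with 1579 per kb for Dp, 1461 for mad2, 767 for E2f1 and 520 for CycD.

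**Figure D3:**
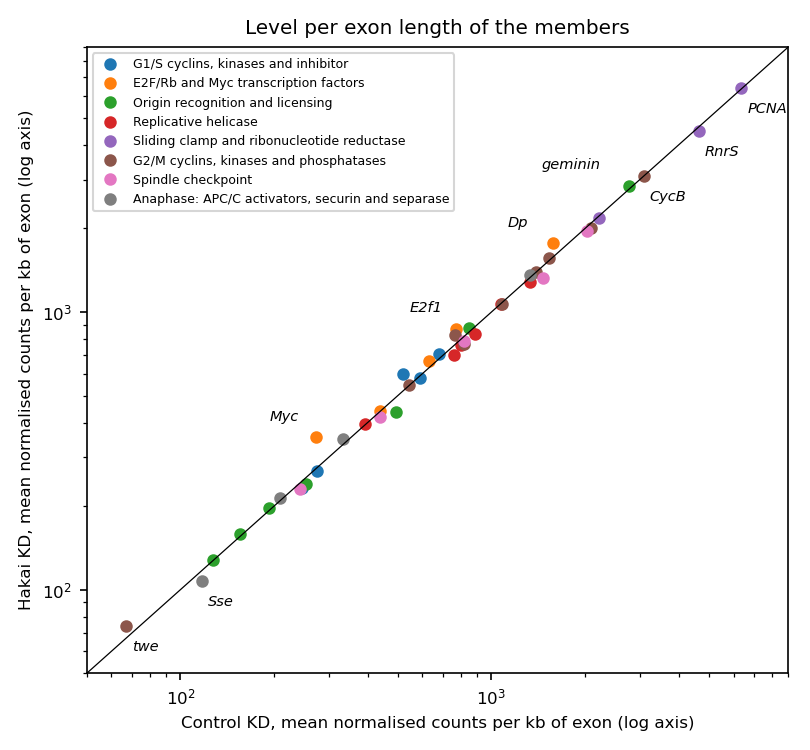
Mean normalised counts per kb of exon in control KD (horizontal axis, log scale) and Hakai KD (vertical axis, log scale) for the 44 genes, coloured by role, with the line of equal levels. The points follow the line from twe at 66.8 to PCNA at 6343, and Myc, E2f1 and Dp stand a little above it.

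The mitotic cyclins and their kinase were close to their control values. None of the 9 genes of this group was called, and the median log2 fold change was 0.0015. CycA, needed for entry into mitosis, had 4479, 4391 and 4509 normalised counts in control KD and 4566, 4529 and 4569 in Hakai KD, which did not overlap although the log2 fold change was 0.03 (adjusted p = 0.51, edgeR). CycB had the highest count of the 44 genes, with 9353, 9426 and 9407 in control KD and 9213, 9539 and 9426 in Hakai KD. Its log2 fold change of -0.0004 had an interval of -0.066 to 0.065. CycB3, the cyclin of late mitosis, had 1546, 1595 and 1549 in control KD and 1539, 1594 and 1583 in Hakai KD (0.01, interval -0.07 to 0.086). Cdk1, their common kinase, had 1185, 1095 and 1238 in control KD and 1203, 1162 and 1095 in Hakai KD (-0.02, interval -0.135 to 0.09).

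Of the phosphatases that activate Cdk1, stg (Cdc25) limits entry into mitosis in most fly cells and twe serves meiosis. stg had 2142, 2357 and 2522 normalised counts in control KD and 2571, 2483 and 2572 in Hakai KD. Control KD replicate 3 lay within the Hakai KD range, and the log2 fold change of 0.12 did not pass (SE 0.051, adjusted p = 0.14, edgeR). Without that library it was 0.18 and passed (adjusted p = 0.0323), and without control KD replicate 1 it was 0.06 (adjusted p = 0.37). twe was at 152 to 165 in control KD and 167 to 183 in Hakai KD (log2 fold change 0.15, interval -0.033 to 0.335). The mitotic kinase polo had 6373, 6135 and 6149.9 in control KD and 6011, 6033 and 5885 in Hakai KD, and although the groups did not overlap, its log2 fold change of -0.06 did not pass (adjusted p = 0.23, edgeR). The centrosomal kinase aurA and the chromosomal passenger kinase aurB had log2 fold changes of -0.08 (adjusted p = 0.13) and 0.0015 (adjusted p = 0.99, edgeR).

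All 5 spindle checkpoint genes had log2 fold changes below 0, with a median of -0.07, and mad2 fell. mad2 (FBgn0035640; 3L, 5812135 to 5813093), the protein that binds and inhibits Fizzy at unattached kinetochores, had 1215, 1177 and 1194 normalised counts in control KD and 1051, 1148 and 1046 in Hakai KD. The groups did not overlap, with Hakai KD replicate 2 nearest to the control libraries. The mean fell from 1195 ± 19.4 to 1082 ± 57.6 (SD, n = 3 each), a log2 fold change of -0.14 (SE 0.043, adjusted p = 0.0468, edgeR quasi-likelihood test). This call lay at the threshold, and it was lost when any library but Hakai KD replicate 2 was left out, with adjusted p of 0.0892 to 0.151 for control KD replicates 1, 2 and 3 and Hakai KD replicates 1 and 3. It was also lost with DESeq2 (adjusted p = 0.148). The checkpoint kinases BubR1 and Bub1, their partner Bub3 and Mad1, which anchors Mad2 at the kinetochore, had log2 fold changes of -0.06, -0.08, -0.05 and -0.07, and none of them passed. Summed over the 5 genes, control KD libraries held 9686 to 9982 normalised counts and Hakai KD libraries 9358 to 9423. Over all 44 genes the sums lay apart in the other direction, at 105577 to 105919 in control KD and 106288 to 107851 in Hakai KD.

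The genes of anaphase gave no call, and the median of the 4 was 0.03. fzy, the Cdc20 homologue that activates the anaphase-promoting complex in mitosis, had 2665, 2676 and 2649 normalised counts in control KD and 2683, 2781 and 2706 in Hakai KD (log2 fold change 0.03, interval -0.032 to 0.097). pim, the securin that the complex destroys, had 333, 314 and 329 in control KD and 346, 339.6 and 337 in Hakai KD (0.07, interval -0.058 to 0.193). The groups were apart for both genes, by small gaps. Sse, the separase that securin restrains, had a log2 fold change of -0.13 (interval -0.281 to 0.025), and the Cdh1 homologue fzr had 0.04 (interval -0.094 to 0.169).

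**Figure D4:**
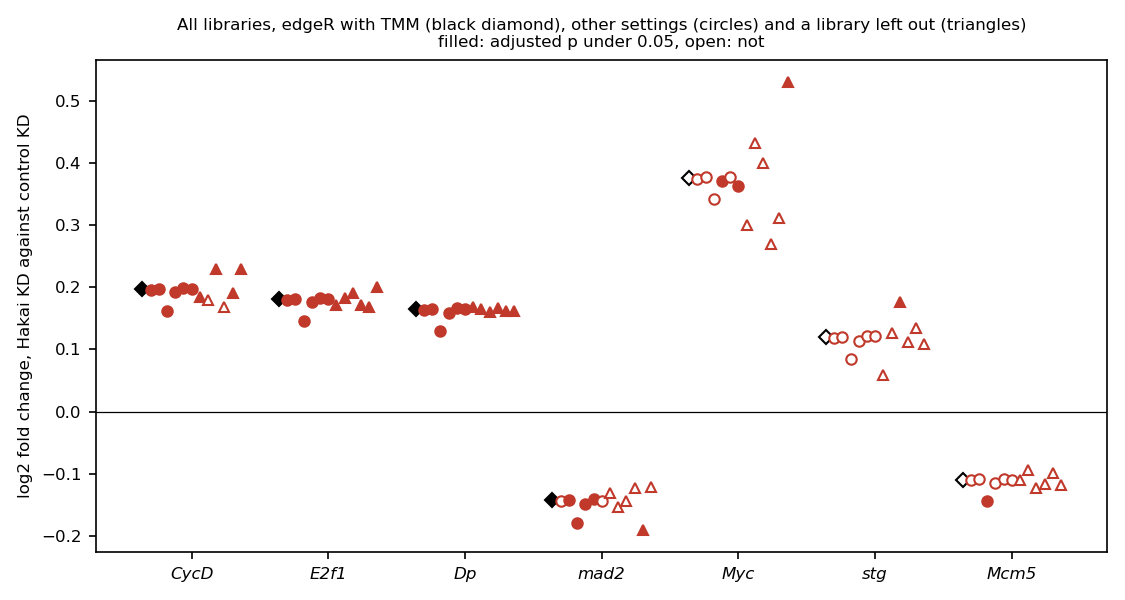
Log2 fold changes (vertical axis) of the 4 genes called and of Myc, stg and Mcm5 with all libraries (black diamonds), under the other settings (circles) and with a library left out (triangles), filled where the adjusted p was under 0.05. E2f1 and Dp are filled throughout, CycD in 10 of 12 alternatives, mad2 in 5 and Myc in 3, and no value changes sign.

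How the reads were assigned could touch some of these genes. The exons of 20 of the 44 genes overlap those of another gene in the annotation, on the same strand for Myc alone, and the strand setting of the authors' counting is not given in the sources used here. The counts bear on it. Of the further genes described below, dUTPase has all 824 exonic bases under asRNA:CR45778 on the other strand. It had 2438 to 2723 normalised counts. Mcm7 has 2003 of 2451 bases under asRNA:CR45871 on the other strand and had 2020 to 2237. Orc3 shares all 3315 with CG34315 on the same strand and had 0. Counting by strand would give such counts, but the setting itself was not tested. For the genes called the overlaps are short or the partners near silent. mad2 shares 94 bases with kri (log2 fold change 0.01) and Dp shares 27 with Fsn (0.02), while asRNA:CR46055, which shares 283 bases with E2f1, had at most 10.8 normalised counts. Some genes not called overlap partners at higher counts on the other strand. twe shares 98 bases with EndoGI (3259 to 3503 normalised counts) and Orc6 shares 55 with Sting (4745 to 5145). CG12535, at 26.3 to 38.4, covers 3754 of the 9170 exonic bases of Myc on the other strand.

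The rest of the cell cycle machinery was described from a list of 142 further genes set by role, with earlier results of these data known. Of these, 129 were matched and 127 tested, and 22 were called (17.3%), against 15.3% of all genes tested. Here 7 rose and 15 fell, where 7.58% and 7.72% of all genes tested did so. With DESeq2 the counts were 5 and 5, and 10.2% of all genes tested were called. The median log2 fold change was -0.04, and 82 of the 127 lay below 0, as did 3891 of the 7811 genes tested. The groups did not overlap for 50 genes (39.4%, against 34.9% of all genes tested). These counts depended on the libraries. Leaving out control KD replicate 1, control KD replicate 2, Hakai KD replicate 1 or Hakai KD replicate 2 lowered the number called from 22 to 11, 12, 11 and 10. The share over all genes tested fell as well, and was 8.97% to 12.9% with a library left out, against 15.3% with all libraries. Scaling by library size alone gave 5 higher and 20 lower. Of the 22 genes, 7 were called under all 12 alternatives. These were chif, trbl, tws and feo, which rose, and PolA1, vtd and Klp61F, which fell.

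Among regulators of the cyclin-dependent kinases, tws gave the largest called rise of these lists. It encodes the B subunit that directs the phosphatase PP2A to substrates of Cdk1, and had 3276, 3520.2 and 3556 normalised counts in control KD and 4565, 4483 and 4257 in Hakai KD. The groups lay well apart (log2 fold change 0.36, SE 0.039, adjusted p = 0.000149, edgeR). mts, the catalytic subunit of PP2A, rose by 0.10 (adjusted p = 0.035, edgeR), a call that was lost in 10 of 12 alternatives, among them DESeq2 (adjusted p = 0.059) and each library left out. trbl, a pseudokinase that promotes the destruction of String in the fly embryo, had 742, 731 and 701 in control KD and 832, 928 and 906 in Hakai KD, a log2 fold change of 0.29 (adjusted p = 0.0027, edgeR). None of the other 10 tested genes of this group passed.

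Replication genes outside the 44 moved in both directions. chif, the activating subunit of the origin kinase Cdc7, had 1444, 1356 and 1343 normalised counts in control KD and 1665, 1683 and 1515 in Hakai KD and rose (log2 fold change 0.23, adjusted p = 0.0083, edgeR), while Cdc7 itself fell (-0.17, adjusted p = 0.025). chif shares exonic bases with Hyls1 on the same strand, so that its counts are less certain. Of the helicase cofactors, Cdc45 (-0.13) and Psf1 (-0.27) fell. Cdc7, Cdc45 and Psf1 were called in 6, 5 and 7 of 12 alternatives and lost with DESeq2 (adjusted p = 0.167, 0.123 and 0.101). All 10 DNA polymerase and primase genes had values below 0 and 1 fell, PolA1, the catalytic subunit of the polymerase that primes synthesis. PolA1 had 2037, 1979.6 and 1989 in control KD and 1807, 1774 and 1773 in Hakai KD (log2 fold change -0.17, adjusted p = 0.0061, edgeR). Summed over the 10 genes, control KD libraries held 12416 to 13037 normalised counts and Hakai KD libraries 11847 to 11927. Sums of the lists by role lay apart in both directions. Those of the kinase regulators were 33463 to 33863 in control KD and 34639 to 35767 in Hakai KD. Over all genes counted the sums also lay apart, at 16283342 to 16607098 and 16853504 to 16969091. The chromatin assembly subunit Caf1-105 (-0.17) fell too, with a call in 6 of 12 alternatives and none with DESeq2 (adjusted p = 0.103).

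The complex of Myb, E2f2 and Rbf that governs E2F targets had calls in both directions. Of the 5 further subunits, mip40 (log2 fold change 0.24) and Myb (0.12) rose and mip120 (-0.16) fell. They were called in 11, 6 and 9 of 12 alternatives, and with DESeq2 mip40 alone was (adjusted p = 0.0191, against 0.0658 for Myb and 0.0735 for mip120). Almost all exonic bases of Myb, 2903 of 2928, are shared on the same strand with CG46440 in the later annotation. CG46440 is not among the genes counted, so that reads from it could be counted as Myb, and the count of Myb is uncertain.

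Mitotic structure genes that were called fell, with the exception of feo, a microtubule bundler of the central spindle. feo had 1829, 2058 and 1989 normalised counts in control KD and 2195, 2349 and 2442 in Hakai KD (log2 fold change 0.25, adjusted p = 0.0069, edgeR). Klp61F, the kinesin that separates spindle poles, had 4974, 4744 and 4609 in control KD and 4265, 4206 and 4253 in Hakai KD (-0.17, adjusted p = 0.0061), and vtd, the cohesin subunit cut by separase, had 3527, 3319 and 3497 in control KD and 3122, 3134 and 3133 in Hakai KD (-0.14, adjusted p = 0.013). Both had groups well apart. Also lower were the condensin subunit Cap-G (-0.12), the kinetochore proteins Cenp-C (-0.15) and Nuf2 (-0.23), the spindle pole protein asp (-0.17), the phosphatase Pp1-87B (-0.13) and Cdc23 (-0.24), a subunit of the anaphase-promoting complex. Of these Pp1-87B was called in 11 of 12 alternatives and asp in 8, but Cap-G in 5 and Cenp-C, Nuf2 and Cdc23 in 6 each. The last 4 were lost with DESeq2 (adjusted p = 0.0768, 0.141, 0.0985 and 0.167). Over the 23 spindle, centrosome and cytokinesis genes the summed counts were 98054, 93947 and 90226 in control KD and 90110.0, 90863 and 90350 in Hakai KD, so that control KD replicate 1, the library farthest from the others of its group, was the highest. Without it, 5 of the genes outside the 44 were called lower in place of 15. With each of the 6 libraries left out in turn this number was 4 to 13. Whether control KD replicate 1 accounts for the lower calls was not tested.

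**Figure D5:**
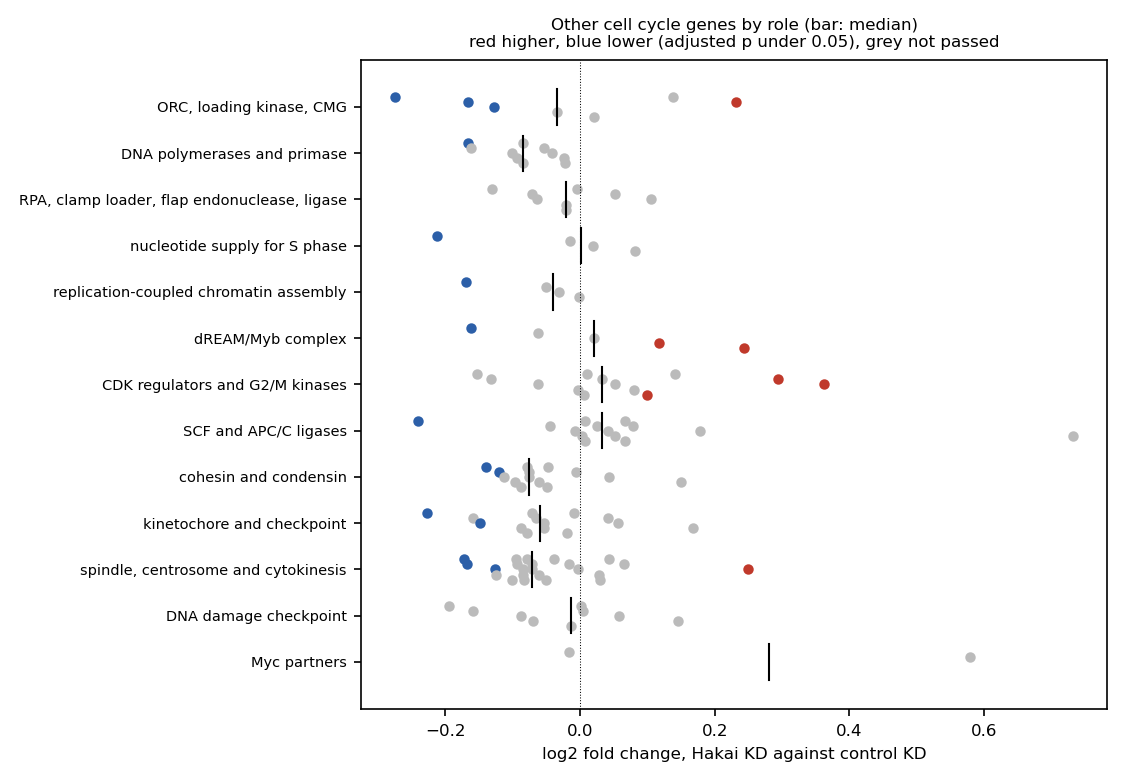
Log2 fold changes (horizontal axis) of the 127 further cell cycle genes tested, 1 point each, by role, with the median of each role as a bar, red for higher, blue for lower and grey for not passed. The DNA polymerase and primase genes all lie below 0, while called genes of the kinase regulators lie above it.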

How the data were processed

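The deposited values are raw counts of reads per gene in 6 libraries, made by the authors from poly(A) RNA (directional library kit, single reads of 85 bases) with STAR 2.5.1b and featureCounts 1.5.1 on BDGP6 (Ensembl 90), versions from the submitters' processing notes. Replicates were not pooled. The strand setting and the handling of reads with several positions are not given in the sources used here. Identifiers were matched to symbols, positions and exon lengths through Ensembl 115 (BDGP6.54, the same assembly in a later annotation), in which 306 of the 17559 identifiers have no position. The 2 groups were tested with edgeR 4.0.16 under R 4.3.3 (filterByExpr with minimum count 10 and minimum total count 15, TMM scaling, quasi-likelihood test, no covariates, Benjamini-Hochberg adjustment over 7811 genes, threshold 0.05), after the code had been tested on simulated data. Standard errors are the log2 fold change divided by the root of its F statistic, and are approximate, as are the 95% intervals (2.194 standard errors). The same-numbered replicates of the 2 groups did not deviate together in scaled counts, which cannot show whether they were handled together. The cell cycle genes, the further lists and the markers were chosen with earlier results of these data known. Genes called are named with their values, and so is a fixed set of regulators of each phase whatever their result. All other members are given by range or value. Of the further genes called, 1 is counted but not reported by name here. Alternatives were DESeq2 1.42.0, its size factors in edgeR, library size alone, no filter, at least 10 counts in every library, the replicate number as a block, and each library left out. A planned count of promoter motifs was not run, since no sequence was used here.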

Additional observations from a re-analysis of the deposited data

How the results depend on the processing

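With DESeq2 none of the 44 genes was called lower (0, against 1 with edgeR), and of the further cell cycle genes 10 were called, 5 of them lower, against 22 and 15. Over all genes tested 10.2% were called with DESeq2, against 15.3% with edgeR. Library size alone as the scaling gave 7 called members, 4 of them lower (Orc6, Mcm5, aurA and mad2), and the 3 higher genes stayed CycD, E2f1 and Dp. It lowered the median log2 fold change to -0.03 both over the 44 genes and over all genes tested. Small positive values went below 0, among them those of CycA, CycB3, E2f2, PCNA and fzy, none of which passed either way. With each library left out in turn, 2 to 4 members were called, 2 to 4 higher and 0 to 1 lower, and of the further genes 10 to 18 were called, 4 to 8 higher and 4 to 13 lower, at 8.97% to 12.9% of all genes tested. No called value changed sign. In scaled counts, same-numbered replicates did not deviate together (correlations of deviations -0.08, -0.03 and -0.07 for replicates 1, 2 and 3). This cannot show whether they were handled together. In both groups the total counts were highest in replicate 2 and lowest in replicate 3. With the replicate block 4 members were called and 0 of them lower, since Myc passed (adjusted p = 0.0498) and mad2 did not (adjusted p = 0.0607). Without a filter on low counts Myc passed as well. Depth limits genes at low levels, and the standard error was 0.084 for twe at 159 normalised counts in control KD and 0.028 for Dp at 5049.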

Other observations

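As in Myc, Hakai KD replicates 1 and 2 lay above all control libraries and replicate 3 did not in some of the further cell cycle genes. Of these Mnt and Nipped-B, where the gap was wide, were picked after their values were seen, and Cks30A, ida and Hus1-like showed the same order with log2 fold changes of 0.05, 0.04 and 0.004. Mnt, a partner protein of the Myc network, had 312, 539 and 508 normalised counts in control KD and 743, 990.3 and 279 in Hakai KD (log2 fold change 0.58, SE 0.336, adjusted p = 0.28, edgeR). Nipped-B, which loads cohesin, had 4652, 4197 and 4116 in control KD and 5304, 5801 and 3273 in Hakai KD (0.15, adjusted p = 0.55, edgeR). In both genes Hakai KD replicate 3 lay below all control libraries. APC7, a subunit of the anaphase-promoting complex, had the highest log2 fold change of the further genes, 0.73, at 15.4 to 20.2 normalised counts in control KD and 22.1 to 33.4 in Hakai KD, and did not pass (adjusted p = 0.062, edgeR).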
